A study of Rattus norvegicus with 12 samples.

Results

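Nppa, Nppb, Acta1 and Ankrd1, 4 genes used as markers of mechanical load on heart muscle, were followed across every cardiac sample of a rat heart failure study. They were taken by gene symbol from a table of 17602 genes. Each symbol matched 1 entry, and all 4 passed the filter on low values that 10526 genes passed (1 TPM or more in 4 or more samples). TPM is a length-corrected share of a sample's transcripts, so levels can be set side by side between genes.

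The study used ZSF1 rats to ask what raising cardiac NAD+ does in a model of heart failure with preserved ejection fraction. RNA was sequenced from 4 cardiac muscle samples of obese rats given the NAD+ precursor nicotinamide (obese+NAM), 4 of obese rats without it (obese) and 4 of lean rats as non-failing controls (lean). NAM was dissolved in drinking water at 24 mM between weeks 8 and 20 of age. All 3 groups share the ZSF1 strain, a hybrid rat with hypertension, and obese ZSF1 rats are known to inherit faulty leptin receptor genes from both parents. The labels call the obese rats diet-induced, and no diet is given in the sources used here. Neither the chamber of the heart, nor sex, nor the age of the untreated rats at sampling is given there. The labels number the samples of a group without saying that each came from its own animal, so the p-values measure the spread between these samples.

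Nppa and Nppb encode the precursors of atrial and brain natriuretic peptide, hormones that heart muscle cells release when stretched and that lower blood pressure through a receptor with guanylyl cyclase activity. In the adult heart Nppa is strongest in the atria, and stretch or hypertrophy turns both genes up in the ventricles. Acta1 encodes skeletal alpha-actin, the fetal partner of cardiac alpha-actin (Actc1) in rodent ventricles, and Ankrd1 encodes a cardiac ankyrin repeat protein that binds titin in the sarcomere and also enters the nucleus.

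Ankrd1 was the most abundant of the 4 genes, with a mean of 1489 TPM over the 12 samples, rank 34 of the 17104 genes with a number in every sample. Nppb followed with a mean of 242 TPM (rank 198), then Nppa with 169.8 TPM (rank 274) and Acta1 with 107 TPM (rank 425). The 4 genes also differed in how much samples of 1 group differed from each other. The SD within groups was taken on the log2 scale, after the median-of-ratios rescaling between samples that is described below. It was 0.72 for Nppa, 0.42 for Nppb, 0.43 for Acta1 and 0.16 for Ankrd1. The median was 0.13 for the 1187 genes with a mean of at least 30 TPM. Of those genes, 4.47% had a larger SD than Nppa, 8.34% than Nppb, 8.17% than Acta1 and 35.6% than Ankrd1. Nppa, Nppb and Acta1 thus lay among the most variable of these genes, and Ankrd1 lay nearer the median. Genes of the same level as each were not compared apart.

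**Figure D1:**
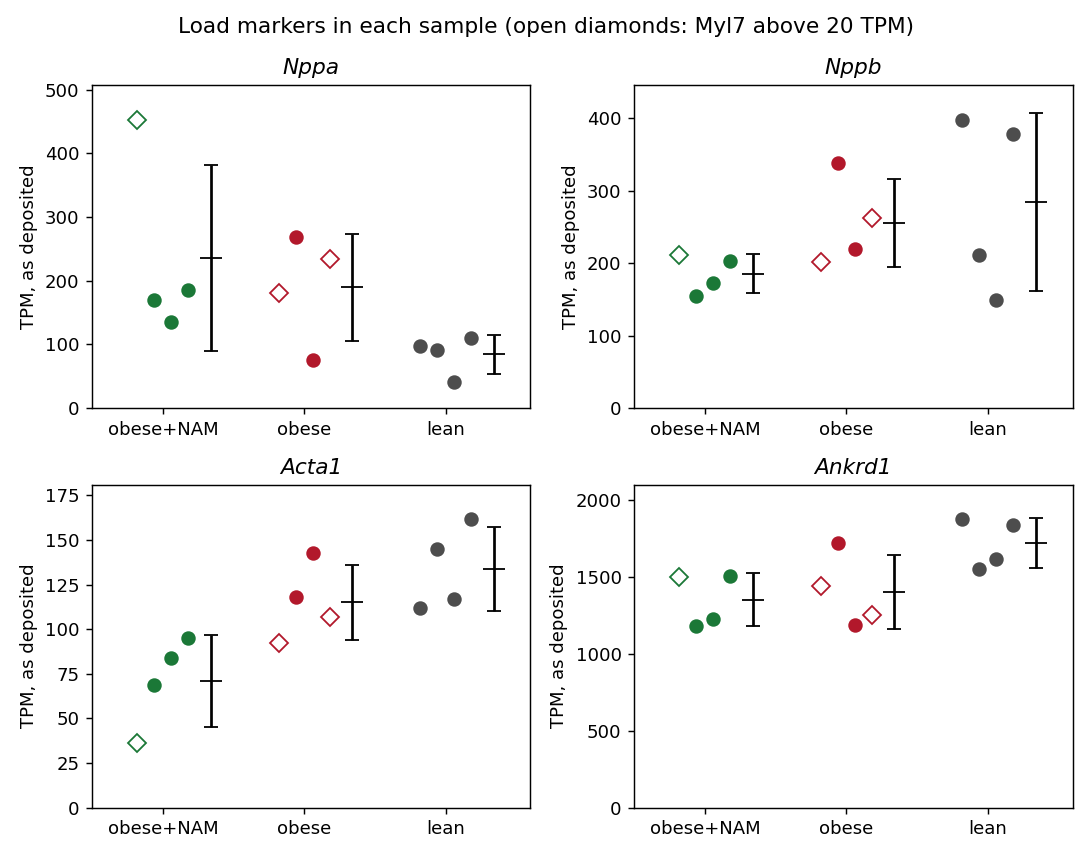
TPM of Nppa, Nppb, Acta1 and Ankrd1 (vertical axes, from 0) in each of 4 obese+NAM, 4 obese and 4 lean samples (points, replicate 1 to 4 from left to right), with the group mean and SD as bars. Open diamonds are the 3 samples with more than 20 TPM of the atrial gene Myl7. Nppa lies between 135 and 453 TPM in obese+NAM samples and between 40.4 and 109.7 TPM in lean samples, and the Acta1 values of obese+NAM samples, at most 94.97 TPM, lie under all lean values.

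Across samples, each column is a share with no scaling between libraries, and the share taken by mitochondrially encoded genes was 69.9% to 73.8% in obese+NAM, 74.6% to 75.5% in obese and 66.2% to 70.4% in lean samples. The median log2 change over all tested genes was 0.25 in obese+NAM against obese, 0.05 in obese+NAM against lean and -0.20 in obese against lean. Every change is therefore given as deposited and after median-of-ratios rescaling, which divides each sample by its median ratio to a reference made from all samples (factors from 0.841 to 1.17) and brings these medians to -0.01, 0.00 and 0.00. Between 14759 and 15120 genes lay above 0 in a sample. The number of reads cannot be had from TPM, so the counting error is unknown. In bulk tissue, fewer cells of a type and less RNA per cell cannot be told apart.

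None of the 4 genes passed an adjusted p of 0.05 in any of the 3 comparisons on either scale (limma on log2(TPM + 1), Benjamini-Hochberg over 10526 genes). As deposited, 28.8% of all tested genes were called higher and 0.466% lower in obese+NAM against obese, 0.865% higher and 0.969% lower in obese+NAM against lean, and 0.352% higher and 16.5% lower in obese against lean. After rescaling the shares were 0.2% higher and 0.513% lower in obese+NAM against obese, 0.77% higher and 1.59% lower in obese+NAM against lean, and 0.589% higher and 0.751% lower in obese against lean. At an unadjusted p under 0.05 stood Acta1 as deposited, and Nppb, Acta1 and Ankrd1 after rescaling, in obese+NAM against obese. Nppa, Acta1 and Ankrd1 stood there in obese+NAM against lean on both scales. For obese against lean it was Ankrd1 as deposited and Nppa after rescaling.

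The values of obese+NAM and lean samples did not overlap for 3 of the 4 genes, Nppa (higher in obese+NAM), Acta1 and Ankrd1 (both lower in obese+NAM), on both scales. This held for 10.7% of all tested genes as deposited and for 12.2% after rescaling. Between obese+NAM and obese samples, 0 of the 4 genes stood apart as deposited, where 28.4% of all genes did, and 3 did after rescaling (Nppb, Acta1 and Ankrd1, each lower in obese+NAM), where 9.18% did. Between obese and lean samples 0 of the 4 stood apart on either scale, against 23.8% of all genes as deposited and 9.57% after rescaling.

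**Figure D2:**
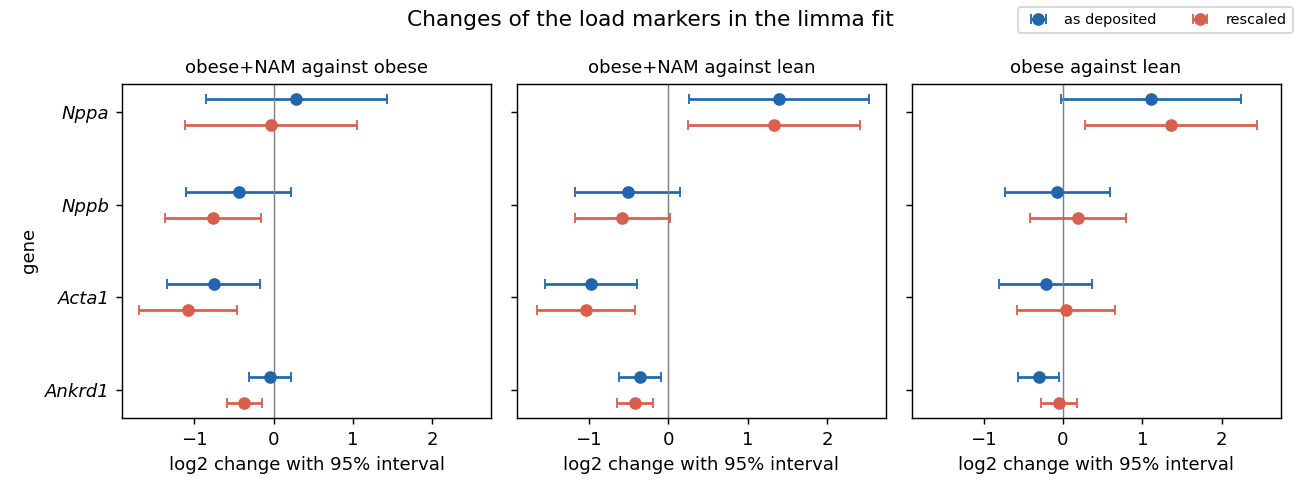
Log2 change with its 95% interval (horizontal axis) of Nppa, Nppb, Acta1 and Ankrd1 (rows) in the limma fit for obese+NAM against obese, obese+NAM against lean and obese against lean, as deposited (blue) and after rescaling (red). The Nppa intervals are the widest, from 0.26 to 2.53 in obese+NAM against lean as deposited, and the Ankrd1 intervals are the narrowest.

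Nppa, the precursor of atrial natriuretic peptide, was on average higher in both obese groups than in lean samples, with a wide spread. It had 453, 169, 135 and 186 TPM in obese+NAM samples 1 to 4, against 180.3, 268, 76.0 and 233 TPM in obese samples and 96.6, 90.8, 40.4 and 109.7 TPM in lean samples. Obese+NAM sample 1 stood far above all others, lean sample 3 was the lowest, and obese sample 3 was the only sample of the 8 obese or obese+NAM samples within the lean range. Group means were 236 ± 146 TPM in obese+NAM, 189 ± 83.7 TPM in obese and 84.4 ± 30.4 TPM in lean samples (SD, n = 4 each). The ratio of highest to lowest sample within a group was 3.36 in obese+NAM, 3.53 in obese and 2.72 in lean samples.

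The log2 change of Nppa in obese+NAM against lean was 1.39 as deposited (SE 0.51, limma adjusted p = 0.212) and 1.33 after rescaling (SE 0.49, adjusted p = 0.202). For obese against lean it was 1.11 (SE 0.51, adjusted p = 0.157) as deposited and 1.36 (SE 0.49, adjusted p = 0.198) after rescaling. Obese+NAM and obese samples overlapped, and their difference was 0.29 as deposited (95% interval -0.85 to 1.42, adjusted p = 0.697) and -0.03 after rescaling (-1.12 to 1.05, adjusted p = 0.983). Over the 25 alternatives run per comparison, the adjusted p of Nppa lay between 0.514 and 0.983 in obese+NAM against obese, between 0.0691 and 0.443 in obese+NAM against lean, and between 0.0616 and 0.437 in obese against lean. With this spread and groups of 4 the intervals of Nppa are wide, so that smaller differences could be missed.

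Because Nppa is strongest in the atria, the other atrial genes were read in the same samples. Myl7, the atrial regulatory myosin light chain, had 192, 2.13, 2.89 and 2.49 TPM in obese+NAM samples 1 to 4, 30.4, 2.17, 5.30 and 99.3 TPM in obese samples, and 0.677, 8.50, 7.87 and 3.05 TPM in lean samples. Obese+NAM sample 1 and obese samples 4 and 1 thus stood above 20 TPM, and the other 9 samples at or under 8.50 TPM. Myl4, the atrial essential light chain, picked out the same 3 samples, with 72.0 TPM in obese+NAM sample 1, 43.0 and 17.1 TPM in obese samples 4 and 1, and at most 2.15 TPM elsewhere. Sln (sarcolipin, an atrial inhibitor of the calcium pump) followed with 381, 206 and 53.8 TPM in these 3 samples and 10.8 to 48.0 TPM in the other 9. Bmp10, a growth factor of the right atrium, had 11.4 TPM in obese+NAM sample 1 and at most 0.394 TPM elsewhere. Kcnj3 and Gja5, also on the list of atrial markers, did not follow this split. Kcnj3 had 12.2 TPM in obese+NAM sample 1 but 5.93 and 4.50 TPM in obese samples 4 and 1. Obese+NAM samples 2 to 4 had 11.1 to 12.0 TPM of Kcnj3. Gja5 had 1.95 TPM in obese+NAM sample 1, 1.93 and 2.11 TPM in obese samples 4 and 1, and 2.32 TPM in obese sample 2.

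The summed level of the 8 atrial markers (Nppa left out) ranged from 30.4 to 678 TPM in obese+NAM, from 32.4 to 361 TPM in obese and from 28.0 to 65.2 TPM in lean samples. Bmp10 was listed at 0 in 1 obese+NAM, 4 obese and 2 lean samples, and no other atrial marker was at 0 in any sample. Of the 7 atrial markers tested, Kcnj3 (a potassium channel subunit) was called higher in obese+NAM against obese as deposited and Gja5 (connexin 40) higher in obese against lean on both scales. Without the 3 samples above 20 TPM of Myl7, the log2 change of Nppa was 0.18 (SE 0.61, adjusted p = 0.887) in obese+NAM against obese, 1.02 (SE 0.51, adjusted p = 0.443) in obese+NAM against lean and 0.85 (SE 0.57, adjusted p = 0.425) in obese against lean. Nppa was thus still higher on average than in lean samples, and neither difference passed. The obese group then held only samples 2 and 3, at 268 and 76.0 TPM of Nppa, and sample 3 lay within the lean range. The highest Nppa value among the 9 remaining samples, 268 TPM in obese sample 2, came with 2.17 TPM of Myl7. The part of atrial tissue in the Nppa values of the other 3 samples was not tested.

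**Figure D3:**
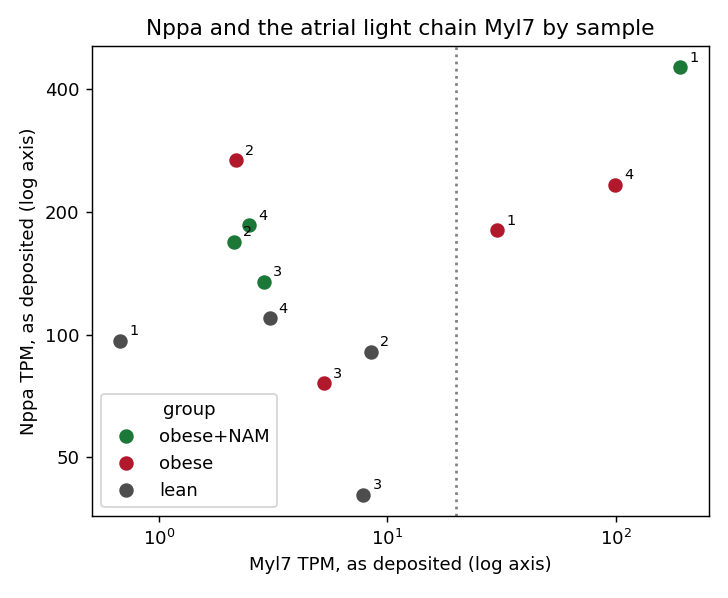
Nppa (vertical log axis, TPM) against the atrial light chain Myl7 (horizontal log axis, TPM) in the 12 samples, numbered by replicate and coloured by group, with a dotted line at 20 TPM of Myl7. Obese+NAM sample 1 is the highest in both genes, at 453 TPM of Nppa and 192 TPM of Myl7, whereas obese sample 2 has 268 TPM of Nppa and 2.17 TPM of Myl7.

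Nppb, the precursor of brain natriuretic peptide, had its lowest mean in the obese+NAM samples and its widest spread in the lean samples. It had 212, 154, 173 and 203 TPM in obese+NAM samples 1 to 4, against 202, 339, 219 and 262 TPM in obese samples and 398, 212, 149.5 and 378 TPM in lean samples. Lean samples 1 and 4 were the highest of all 12 and lean sample 3 the lowest, so that the lean range enclosed every value of the other 2 groups. Means were 186 ± 26.7 TPM in obese+NAM, 255 ± 60.9 TPM in obese and 285 ± 123 TPM in lean samples (SD, n = 4 each). The coefficient of variation was 14.4% in obese+NAM, 23.9% in obese and 43.2% in lean samples.

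The log2 change of Nppb in obese+NAM against obese was -0.44 as deposited (SE 0.30, limma adjusted p = 0.286). After rescaling, Nppb ranged from 154 to 181 in obese+NAM and from 240.3 to 365 rescaled TPM in obese samples, with a log2 change of -0.76 (SE 0.27, adjusted p = 0.211). Against lean samples, the change of Nppb in obese+NAM was -0.51 as deposited (SE 0.30, adjusted p = 0.418) and -0.58 after rescaling (SE 0.27, adjusted p = 0.322). The deposited value was -0.31 without lean sample 1 (adjusted p = 0.667), -0.34 without lean sample 4 (adjusted p = 0.636) and -0.78 without lean sample 3 (adjusted p = 0.169). Obese against lean gave -0.07 as deposited (95% interval -0.73 to 0.59, adjusted p = 0.888) and 0.19 after rescaling (-0.42 to 0.79, adjusted p = 0.8001), so that its sign depended on the scale. Over the alternatives the adjusted p of Nppb lay between 0.0747 and 0.503 in obese+NAM against obese, between 0.169 and 0.667 in obese+NAM against lean, and between 0.356 and 0.992 in obese against lean. The 2 lean samples high in Nppb were lean samples 1 and 4. Lean sample 1 also had the highest summed level of 10 immediate-early genes, 171 TPM against 25.0 to 96.5 TPM in the other 11 samples, while lean sample 4 had 39.9 TPM. The part of the immediate-early response in these Nppb values was not tested.

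The 2 peptide genes are neighbours on rat chromosome 5 in the RefSeq annotation of GRCr8, with 0 protein-coding genes between them. To let their proximal promoters be compared, the 190 bases upstream of each annotated start are shown 5′ to 3′ on the coding strand, Nppa at chr5:163711994-163712183 and Nppb at chr5:163699765-163699954, both on the plus strand. Capitals mark matches, on either strand, to GATAA (the core bound by Gata4 and Gata6), to CATTCC (the core bound by Tead factors) and to TATAAA.
Nppa: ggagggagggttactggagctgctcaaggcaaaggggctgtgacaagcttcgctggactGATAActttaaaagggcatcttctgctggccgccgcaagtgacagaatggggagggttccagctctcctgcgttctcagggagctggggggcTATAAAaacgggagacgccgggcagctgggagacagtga
Nppb: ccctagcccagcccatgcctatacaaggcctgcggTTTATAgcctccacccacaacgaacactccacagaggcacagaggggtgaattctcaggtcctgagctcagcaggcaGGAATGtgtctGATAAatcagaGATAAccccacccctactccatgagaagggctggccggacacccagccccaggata
The Nppa window held GATAA from 131 to 127 and TATAAA from 39 to 34 bases before the start. The Nppb window held GATAA from 67 to 63 and again from 56 to 52 bases before the start, CATTCC on the minus strand from 78 to 73, and TATAAA on the minus strand from 155 to 150. Of 33469 rat promoter windows of the same length, 17.99% held GATAA, 9.28% CATTCC and 9.88% TATAAA. These matches describe the letters of the windows and are not measured sites.

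Set against each other within a sample, where scaling between libraries drops out, the mean of Nppa over Nppb was highest in obese+NAM, next in obese and lowest in lean samples. The ratio of Nppa to Nppb was 2.14, 1.10, 0.778 and 0.913 in obese+NAM samples 1 to 4, against 0.892, 0.791, 0.347 and 0.891 in obese samples and 0.242, 0.429, 0.270 and 0.290 in lean samples. All 4 obese+NAM samples lay above all 4 lean samples, and obese sample 3 was the only obese sample inside the lean range. Means were 1.23 ± 0.619 in obese+NAM, 0.730 ± 0.260 in obese and 0.308 ± 0.0830 in lean samples (SD, n = 4 each). The ratio was 3.78-fold higher in obese+NAM than in lean samples (log2 difference 1.92, exact permutation p = 0.0286, 2-sided, 0.0857 adjusted over the 9 ratio tests). It was 2.28-fold higher in obese than in lean samples (log2 difference 1.19, exact p = 0.0571, adjusted 0.129) and 1.66-fold higher in obese+NAM than in obese samples (log2 difference 0.73, exact p = 0.143, adjusted 0.257). Leaving out obese+NAM sample 1 brought this last difference to 0.43, and leaving out obese sample 3 brought it to 0.41. With 4 samples against 4 the smallest p that this test can give is 0.0286, and no ratio passed after adjustment. Tests at that smallest p were adjusted to 0.0857 whatever the size of the difference, so not passing says little about them. Without the 3 samples above 20 TPM of Myl7 the log2 difference in Nppa to Nppb was 0.81 in obese+NAM against obese, 1.62 in obese+NAM against lean and 0.80 in obese against lean. Only samples 2 and 3 were then left in the obese group.

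The ratio of Nppa to Myl7, the 2 atrial genes, spread far more and separated no groups. It was 2.36, 79.3, 46.6 and 74.6 in obese+NAM samples 1 to 4, 5.94, 123, 14.3 and 2.35 in obese samples, and 143, 10.7, 5.13 and 35.9 in lean samples. Exact permutation p-values were 0.514 in obese+NAM against obese, 0.857 in obese+NAM against lean and 0.629 in obese against lean (2-sided, adjusted 0.661, 0.857 and 0.707).

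**Figure D4:**
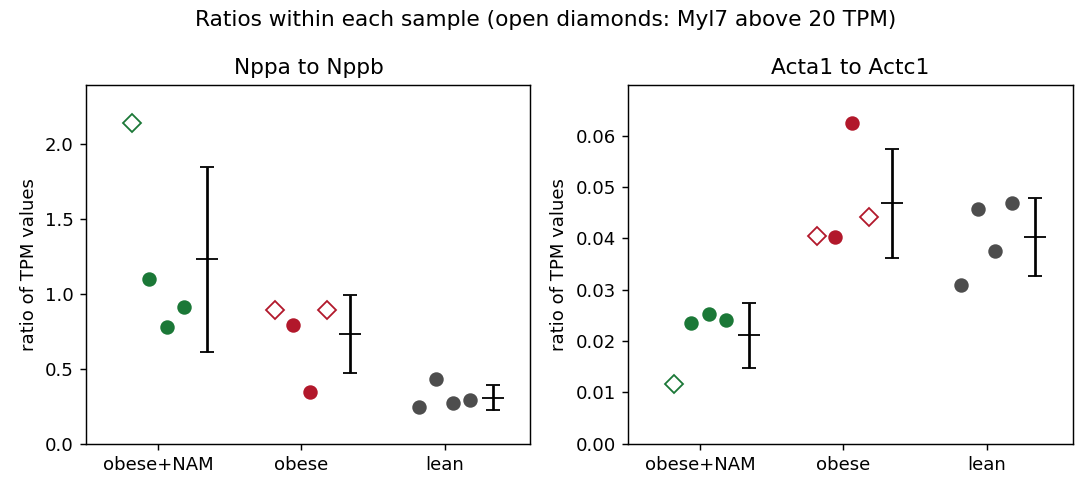
Ratio of Nppa to Nppb (left) and of Acta1 to Actc1 (right), as ratios of TPM values on axes from 0, in each of 4 obese+NAM, 4 obese and 4 lean samples, with the group mean and SD as bars and open diamonds for the 3 samples above 20 TPM of Myl7. The Nppa to Nppb ratio is at least 0.778 in obese+NAM and at most 0.429 in lean samples, and the Acta1 to Actc1 ratio is at most 0.0252 in obese+NAM and at least 0.0309 in the other 8 samples.

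Acta1, the skeletal alpha-actin of the fetal sarcomere program, was lowest in the obese+NAM samples. It had 36.2, 68.8, 84.0 and 94.97 TPM in obese+NAM samples 1 to 4, against 92.3, 118, 143 and 107 TPM in obese samples and 112, 145, 117 and 162 TPM in lean samples. Obese+NAM sample 1 was the lowest of all, obese sample 1 lay just under the highest obese+NAM sample, and every lean value lay above every obese+NAM value. Means were 71.0 ± 25.5 TPM in obese+NAM, 115 ± 21.3 TPM in obese and 134 ± 23.6 TPM in lean samples (SD, n = 4 each).

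The log2 change of Acta1 in obese+NAM against obese was -0.76 as deposited (SE 0.26, limma adjusted p = 0.0522) and -1.08 after rescaling (SE 0.28, adjusted p = 0.114). Against lean samples it was -0.97 as deposited (SE 0.26, adjusted p = 0.104) and -1.04 after rescaling (SE 0.28, adjusted p = 0.0837). Obese and lean samples overlapped, with a change of -0.22 as deposited (95% interval -0.80 to 0.37, adjusted p = 0.596) and 0.04 after rescaling (-0.58 to 0.66, adjusted p = 0.965). For obese+NAM against obese, 4 of 25 alternatives brought the adjusted p under 0.05 (range 0.0241 to 0.217), among them leaving out obese+NAM sample 4 (-0.92, adjusted p = 0.0357). Leaving out obese+NAM sample 1, the lowest in Acta1, brought the change to -0.47 (adjusted p = 0.0731). The adjusted p ranged from 0.0491 to 0.207 in obese+NAM against lean and 0.354 to 0.967 in obese against lean. Obese+NAM sample 1 was also the sample with most Myl7. Without the 3 samples above 20 TPM of Myl7, the change of Acta1 was -0.66 (SE 0.19, adjusted p = 0.0948) in obese+NAM against obese, -0.68 (SE 0.16, adjusted p = 0.0930) in obese+NAM against lean and -0.03 (SE 0.18, adjusted p = 0.946) in obese against lean. Only samples 2 and 3 were then left in the obese group.

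The adult cardiac isoform Actc1, which takes most of the alpha-actin in every sample, had 3134, 2928, 3335 and 3951 TPM in obese+NAM samples 1 to 4, against 2285, 2927, 2289 and 2429 TPM in obese samples and 3616, 3162, 3118 and 3449.5 TPM in lean samples. Actc1 rose in obese+NAM against obese as deposited (log2 change 0.43, SE 0.10, limma adjusted p = 0.0103), but not after rescaling (0.10, SE 0.08, adjusted p = 0.605). It fell in obese against lean as deposited (-0.43, SE 0.10, adjusted p = 0.0140), and after rescaling the change was -0.17 (SE 0.08, adjusted p = 0.333). Between obese+NAM and lean samples the change was -0.01 as deposited (SE 0.10, adjusted p = 0.985). Acta1 and Actc1 encode closely related alpha-actins, and TPM values do not show how reads were assigned between the 2 genes. The levels of Acta1 carry that uncertainty, and its size was not tested.

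The ratio of Acta1 to Actc1 was 0.0116, 0.0235, 0.0252 and 0.0240 in obese+NAM samples 1 to 4, against 0.0404, 0.0402, 0.0624 and 0.0441 in obese samples and 0.0309, 0.0458, 0.0374 and 0.0468 in lean samples. All 4 obese+NAM samples lay under all 8 others, and the obese and lean samples overlapped. As a share of both transcripts, Acta1 made up 2.06% ± 0.615 in obese+NAM, 4.46% ± 0.954 in obese and 3.86% ± 0.698 in lean samples (SD, n = 4 each). The ratio was 0.438 of the obese level in obese+NAM samples (log2 difference -1.19, exact permutation p = 0.0286, 2-sided, adjusted 0.0857 over the 9 ratio tests). It was 0.508 of the lean level in obese+NAM samples (log2 difference -0.98, exact p = 0.0286, adjusted 0.0857). In obese against lean the log2 difference was 0.21 (exact p = 0.371, adjusted 0.557). Without the 3 samples above 20 TPM of Myl7 the log2 differences were -1.05 in obese+NAM against obese, -0.71 in obese+NAM against lean and 0.34 in obese against lean. Only samples 2 and 3 were then left in the obese group.

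The Acta1 promoter window is shown because it holds an exact letter match to the CArG box, the site of serum response factor. Neither peptide gene's window held an exact match, and looser forms of this site were not searched for. The Acta1 window also lacks the GATAA that both peptide windows held. It covers chr19:68784195-68784384 on the minus strand of GRCr8 (RefSeq) and is printed 5′ to 3′ along the gene, with capitals for CATTCC, for TATAAA and for the CArG box.
Acta1: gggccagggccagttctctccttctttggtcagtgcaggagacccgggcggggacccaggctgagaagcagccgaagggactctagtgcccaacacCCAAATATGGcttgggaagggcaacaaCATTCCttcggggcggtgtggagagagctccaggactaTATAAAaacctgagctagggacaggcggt
CATTCC lay from 67 to 62 bases, TATAAA from 29 to 24 bases and the CArG box from 94 to 85 bases before the start. That box was found in 1.08% of the 33469 windows.

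Ankrd1, the stretch-responsive titin partner, was highest in the lean samples and had the tightest values of the 4 genes. It had 1496, 1179.6, 1222 and 1502 TPM in obese+NAM samples 1 to 4, against 1438, 1721, 1186 and 1249.8 TPM in obese samples and 1873, 1549.5, 1615 and 1836 TPM in lean samples. Every lean value lay above every obese+NAM value, and obese sample 2 was the only obese sample within the lean range. Means were 1350.0 ± 173 TPM in obese+NAM, 1399 ± 240.3 TPM in obese and 1719 ± 160.3 TPM in lean samples (SD, n = 4 each).

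In obese+NAM against lean the log2 change of Ankrd1 was -0.35 as deposited (SE 0.12, limma adjusted p = 0.176) and -0.42 after rescaling (SE 0.10, adjusted p = 0.0579). In obese against lean the change was -0.31 as deposited (SE 0.12, adjusted p = 0.0972) and -0.05 after rescaling (95% interval -0.27 to 0.18, adjusted p = 0.869). Obese+NAM against obese gave -0.04 as deposited (-0.31 to 0.22, adjusted p = 0.809) and -0.37 after rescaling (SE 0.10, adjusted p = 0.121). The obese mean thus lay near that of obese+NAM as deposited and near that of lean samples after rescaling. After rescaling, Ankrd1 ranged from 1089 to 1337 in obese+NAM, from 1355 to 1855 in obese and from 1503 to 1758 rescaled TPM in lean samples. With TPM recomputed without mitochondrially encoded genes, the change of Ankrd1 was -0.25 (adjusted p = 0.210) in obese+NAM against obese, -0.25 (adjusted p = 0.168) in obese+NAM against lean and 0.00 (adjusted p = 0.998) in obese against lean. With quantile normalization it was -0.04 (adjusted p = 0.897) in obese+NAM against obese, -0.07 (adjusted p = 0.809) in obese+NAM against lean and -0.03 (adjusted p = 0.938) in obese against lean, so that the size of the Ankrd1 differences depended on the scaling. Over the 25 alternatives the adjusted p of Ankrd1 lay between 0.121 and 0.9999 in obese+NAM against obese, between 0.0579 and 0.809 in obese+NAM against lean, and between 0.0266 and 0.998 in obese against lean. The lowest of these, 0.0266, came without obese sample 2 (log2 change -0.41).

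Across the 12 samples the 4 genes did not move as 1 block. Of the 6 pairs, compared on rescaled log2(TPM + 1), Nppb and Ankrd1 had the highest Pearson r, 0.744 (permutation p = 0.00656, adjusted over 6 pairs 0.0394), with a Spearman rho of 0.727 (permutation p = 0.00933, adjusted 0.0560). Without obese sample 2 and lean sample 1, the 2 samples farthest from the median of Nppb, r was 0.618, and within groups, after taking out the group means, it was 0.538. Within groups the r of Nppa with Nppb (0.616) and with Ankrd1 (0.592) was higher, and no within-group r was tested. The permutations ran over all 12 samples without regard to group, so the p-values include differences between group means. The 4 obese+NAM samples were low in both genes, and lean samples 1 and 4 and obese sample 2 were high in both.

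The correlations of Nppa with the other 3 genes did not pass. Its r was 0.196 with Nppb (permutation p = 0.540, adjusted 0.648), -0.485 with Acta1 (permutation p = 0.111, adjusted 0.166) and -0.085 with Ankrd1 (permutation p = 0.792, adjusted 0.792). Its Spearman rho with them was 0.182, -0.448 and -0.098 (adjusted permutation p = 0.688, 0.220 and 0.766). Within groups the r of Nppa was 0.616 with Nppb, -0.541 with Acta1 and 0.592 with Ankrd1. Acta1 had an r of 0.513 with Nppb (permutation p = 0.0800, adjusted 0.160; rho 0.552) and of 0.556 with Ankrd1 (permutation p = 0.0551, adjusted 0.160; rho 0.601). Within groups these were -0.027 and -0.243.

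**Figure D5:**
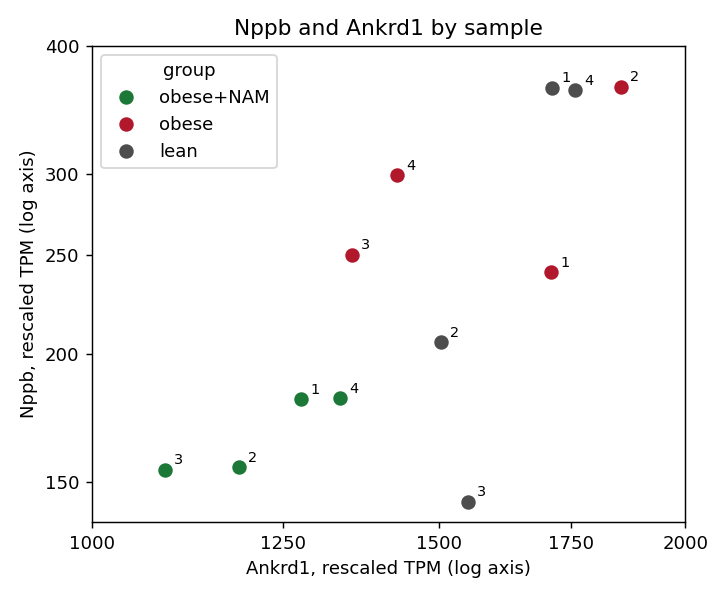
Nppb (vertical log axis) against Ankrd1 (horizontal log axis), both in rescaled TPM, in the 12 samples, numbered by replicate and coloured by group. The obese+NAM samples lie between 154 and 181 of Nppb and between 1089 and 1337 of Ankrd1, and lean samples 1 and 4 and obese sample 2 lie at the upper right (Pearson r = 0.744).

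By Pearson r over the 12 samples (rescaled log2 values, 4479 genes with a mean of at least 5 TPM), the genes most like Nppa were Pam (0.842), Anp32a (0.825), Vps4b (0.816), Glo1 (0.815) and Tomm34 (0.810). Pam encodes the enzyme that amidates peptide hormones and is a major membrane protein of atrial granules. Myl4 came at rank 37 (0.726), Myh7 at rank 63 (0.695) and Myl7 at rank 337 (0.512). Nppb was most like Fkbp2 (0.870), Htra1 (0.864), Polr2f (0.856), Mrps7 (0.840) and Cdkn1a (0.836), with the calcineurin target Rcan1 at rank 23 (0.754), Ankrd1 at rank 24 (0.744) and Ccn2, a matricellular protein induced by stretch, at rank 34 (0.731). Acta1 was most like Psmd8 (0.855), Fam89b (0.837), a gene with a placeholder symbol, Gngt2 (0.836) and the small heat shock protein Hspb1 (0.834). Ankrd1 was most like Pdcl3 (0.931), Tmem14c (0.879), the ATP synthase subunit Atp5mc2 (0.878), Ppfibp1 (0.864) and Asb2 (0.861), and Nppb came at rank 54. All of these samples share their groups, so likeness over 12 samples includes the differences between group means.

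Among 17 other genes of the natriuretic peptide system, 12 were tested, and Corin, the protease that cleaves the precursor encoded by Nppa, was the 1 gene that passed in obese+NAM against lean. Corin had 16.2, 13.4, 20.9 and 17.2 TPM in obese+NAM samples 1 to 4, against 6.46, 10.8, 10.6 and 9.46 TPM in obese samples and 10.3, 7.81, 9.49 and 11.4 TPM in lean samples. All 4 obese+NAM samples lay above the other 8. Corin rose in obese+NAM against lean on both scales (log2 change 0.73, SE 0.17, limma adjusted p = 0.0430 as deposited, and 0.67, SE 0.15, adjusted p = 0.0361 after rescaling). Against obese samples it rose as deposited (0.80, SE 0.17, adjusted p = 0.00595), and after rescaling the change was 0.50 (SE 0.15, adjusted p = 0.130). As deposited, 4 of the 12 rose in obese+NAM against obese (Corin, the natriuretic receptor Npr2, the peptide-degrading protease Ide and the phosphodiesterase Pde3a) and 0 fell, a count near the 28.8% of all genes called higher there. After rescaling 0 passed by limma, with 3 of the 12 at an unadjusted p under 0.05. Ide fell in obese against lean as deposited (-0.43, SE 0.10, adjusted p = 0.0128), and after rescaling 0 of the 12 passed (1 at an unadjusted p under 0.05). The median change of the 12 genes was 0.27, -0.02 and -0.32 in obese+NAM against obese, obese+NAM against lean and obese against lean, beside 0.25, 0.05 and -0.20 over all genes.

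The receptors of the 2 peptides were low and did not pass. Npr1, the guanylyl cyclase receptor, had 2.73 ± 0.619 TPM in obese+NAM, 1.99 ± 0.371 TPM in obese and 2.41 ± 0.362 TPM in lean samples (SD, n = 4 each). The clearance receptor Npr3 had 2.59 ± 1.15 TPM in obese+NAM, 2.06 ± 0.517 TPM in obese and 3.39 ± 0.506 TPM in lean samples, with a change of -0.53 in obese against lean (SE 0.20, limma adjusted p = 0.0877). Furin, a protease that can cleave the Nppb precursor, had 3.09 ± 0.541 TPM in obese+NAM, 2.33 ± 0.321 TPM in obese and 3.68 ± 1.10 TPM in lean samples (adjusted p from 0.0624 to 0.616 as deposited).

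Of 28 transcription regulators of load genes, 22 were tested. Tead1, a factor that binds CATTCC and acts with Yap1, had 13.4, 7.25, 7.54 and 8.03 TPM in obese+NAM samples, against 3.82, 4.63, 5.47 and 5.75 TPM in obese samples and 10.8, 10.2, 11.2 and 11.6 TPM in lean samples. The obese samples lay under all 8 others. Tead1 fell in obese against lean on both scales (log2 change -1.03, SE 0.16, limma adjusted p = 0.00309 as deposited, and -0.80, SE 0.15, adjusted p = 0.0262 after rescaling), and in obese+NAM against obese it rose as deposited (0.74, SE 0.16, adjusted p = 0.00779) but not after rescaling (0.46, SE 0.15, adjusted p = 0.165). Gata4 fell with it in obese against lean as deposited (-0.38, SE 0.12, adjusted p = 0.0427), with -0.15 after rescaling (adjusted p = 0.511). As deposited, 8 of the 22 rose in obese+NAM against obese (Gata6, Mef2a, Mef2c, Tbx20, Myocd, Nfatc3, Tead1 and Zfpm2) and 0 fell, a count near the 28.8% of all genes called higher there, and after rescaling 0 passed by limma (7 at an unadjusted p under 0.05). Between obese+NAM and lean samples 0 of the 22 passed on either scale, with 6 at an unadjusted p under 0.05 on each. The median change of the 22 genes, 0.30, 0.07 and -0.23 in obese+NAM against obese, obese+NAM against lean and obese against lean, was near that of all genes.

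Of 11 tested actins and actin partners, 7 rose in obese+NAM against obese as deposited (Actc1, Actn2, Tpm1, Tmod1, Cfl2, Nebl and Cap2), where 28.8% of all genes did. In obese against lean 5 fell (Actc1, Actn2, Tpm1, Tmod1 and Cfl2), where 16.5% of all genes did. After rescaling 0 passed by limma in these comparisons (5 at an unadjusted p under 0.05 in each). For obese+NAM against lean, 0 passed as deposited (3 at an unadjusted p under 0.05) and Tpm1 fell after rescaling (-0.26, SE 0.06, limma adjusted p = 0.0442). Smooth muscle actin Acta2 did not pass in any comparison (adjusted p from 0.183 to 0.924). Of 13 tested ankyrin repeat genes and titin partners, 8 rose in obese+NAM against obese as deposited (Mypn, Des, Casq2, Fhl2, Xirp1, Xirp2, Ldb3 and Trim63), against 28.8% of all genes, and 0 by limma after rescaling (5 at an unadjusted p under 0.05). For obese against lean, 6 fell as deposited (Des, Fhl2, Xirp2, Ldb3, Myoz2 and Trim63), against 16.5% of all genes, and of these Ldb3, a Z-disc protein, also fell after rescaling (-0.34, SE 0.07, adjusted p = 0.0457). Between obese+NAM and lean samples Casq2, the calcium store protein, rose and the Z-disc protein Myoz2 fell on both scales. The Ankrd1 relative Ankrd23 had 5.52 ± 0.925 TPM in obese+NAM, 7.98 ± 2.85 TPM in obese and 7.31 ± 2.81 TPM in lean samples (SD, n = 4 each) and did not pass, nor did Csrp3 (adjusted p from 0.0740 to 0.956).

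Of 19 other load and stretch genes tested, the 2 myosin heavy chains changed in most comparisons. Myh7, the slow fetal isoform, had 831, 745, 763 and 806 TPM in obese+NAM samples, against 614, 702, 479 and 384 TPM in obese samples and 333, 291, 325 and 397 TPM in lean samples. All obese+NAM values lay above the other 8, and obese sample 4 lay within the lean range. Myh7 rose in obese+NAM against lean (log2 change 1.23, SE 0.16, limma adjusted p = 0.00266 as deposited) and in obese against lean (0.66, SE 0.16, adjusted p = 0.0147), on both scales. Against obese samples it rose in obese+NAM as deposited (0.56, SE 0.16, adjusted p = 0.0201) but not after rescaling (0.24, SE 0.15, adjusted p = 0.484). Myh6, the fast adult isoform, fell in obese+NAM against lean (-0.75, SE 0.14, adjusted p = 0.0189) and in obese against lean (-1.78, SE 0.14, adjusted p = 0.000107), and rose in obese+NAM against obese (1.03, SE 0.14, adjusted p = 0.00292), all on both scales. Synpo2l and Hspb7 rose in obese+NAM against obese and fell with Nmrk2 in obese against lean, as deposited only. Postn, Timp1 and Ccn2, read as genes of matrix and stretch, and the immediate-early genes Fos, Egr1 and Atf3 did not pass in any comparison. Myh7 thus passed in a comparison, obese against lean, in which Nppa, Nppb, Acta1 and Ankrd1 did not, and the difference between Myh7 and these genes was not tested.

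Markers of other cell types were read once for all 4 genes. Skeletal muscle, in which Acta1 is the main actin, was read through 8 markers. Tnni2, Tnnc2, Actn3, Pvalb, Mylpf and Myh4 had at most 1.01 TPM in any sample. The fast troponin Tnnt3 had 1.63 ± 0.638 TPM in obese+NAM, 1.69 ± 0.486 TPM in obese and 2.75 ± 0.735 TPM in lean samples (SD, n = 4 each). Tnnt3 passed in no comparison. Acta1 shared this order of means only as deposited. After rescaling, mean Acta1 was 64.9 in obese+NAM, 130.5 in obese and 127.3 in lean samples. Mean Tnnt3 was then 1.47, 1.91 and 2.61 in the same order of groups. Tnni2 was listed above 0 in all 4 obese+NAM samples (0.256 to 0.526 TPM) and at 0 in all 4 lean samples. Ckm, a creatine kinase that heart muscle also makes, had 204 ± 9.56 TPM in obese+NAM, 176 ± 19.4 TPM in obese and 283 ± 37.5 TPM in lean samples (SD, n = 4 each) and made up most of the summed level of the 8 markers. Ckm fell in obese+NAM against lean on both scales (-0.46, SE 0.10, limma adjusted p = 0.0382 as deposited) and in obese against lean as deposited (-0.68, SE 0.10, adjusted p = 0.00210). The sum was 196 to 215 TPM in obese+NAM, 155 to 198 TPM in obese and 267 to 342 TPM in lean samples. The summed level of 8 cardiomyocyte markers ranged from 17888 to 20655 TPM in obese+NAM, from 14611 to 16459 TPM in obese and from 20821 to 24265 TPM in lean samples. Of these 8 markers, as deposited, 7 rose in obese+NAM against obese, where 28.8% of all genes did. In obese against lean 8 fell as deposited, where 16.5% of all genes did. After rescaling Myh6 rose in obese+NAM against obese, and Myh6 and Myl3 fell in obese against lean. Between obese+NAM and lean samples 2 fell as deposited (Myh6 and Myl3) and 3 after rescaling (Tnni3 as well), where 0.969% and 1.59% of all genes did. Summed fibroblast markers ranged from 313 to 394 TPM in obese+NAM, from 305 to 588 TPM in obese and from 363 to 384 TPM in lean samples. The fibroblast gene Pi16 fell in obese+NAM against obese on both scales and rose in obese against lean as deposited (0.51, SE 0.16, limma adjusted p = 0.0464). After rescaling 0 of the 7 fibroblast markers passed in obese against lean, with 7 at an unadjusted p under 0.05. The endothelial gene Cdh5 rose in obese+NAM against obese and fell in obese against lean as deposited. Sums overlapped between all groups for macrophage markers (15.6 to 20.0 TPM in obese+NAM, 5.81 to 29.1 TPM in obese and 13.5 to 18.5 TPM in lean samples), endothelial markers (39.4 to 54.8 TPM in obese+NAM, 28.1 to 43.0 TPM in obese and 37.6 to 46.1 TPM in lean samples) and smooth muscle markers (17.1 to 28.9 TPM in obese+NAM, 14.4 to 25.0 TPM in obese and 17.0 to 26.2 TPM in lean samples). Summed erythroid markers were 304 to 1343 TPM in obese+NAM, 908 to 2225 TPM in obese and 426 to 835 TPM in lean samples, so that all obese samples lay above all lean samples. Of the 3 erythroid markers tested 0 passed by limma in any comparison, with 2 at an unadjusted p under 0.05 in obese against lean on both scales. All 4 genes are made by heart muscle cells, whose summed markers were lowest in the obese samples as deposited. After rescaling, the median log2 change of the 8 cardiomyocyte markers was 0.05 in obese+NAM against obese. It was -0.24 in obese+NAM against lean and -0.26 in obese against lean, so both obese groups were then similarly low. The part of tissue composition in the values of the 4 genes was not tested.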

How the data were processed

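Bulk RNA of 12 samples (4 obese+NAM, 4 obese and 4 lean) was sequenced from strand-marking libraries, per the labels' protocols. The authors deposited 1 table of TPM per gene. Rnor_6.0 and limma are named per the submitters' processing notes, and tools for alignment and quantification were not given in the sources used here. Of 17602 genes, 498 hold a failed-lookup text in the obese+NAM columns of the deposited table and were left out, which left 17104. None of the 4 genes is among them. No 2 samples held identical values. Depth per sample is unknown, and the error of a value is the spread of the 4 samples in its group.

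Genes with 1 TPM or more in 4 or more samples (10526) were fitted as log2(TPM + 1) with limma 3.58.1 in R 4.3.3 (3 group means, 9 residual degrees of freedom, moderated with a trend and robustly, statmod 1.5.0, 2-sided, Benjamini-Hochberg over all fitted genes, threshold 0.05). A fold on this scale understates the change of low genes. The same fit was run after median-of-ratios rescaling. The 3 ratios were tested as log2 ratios by exact permutation over the 35 splits of 4 against 4, 2-sided (scipy 1.17.1, python 3.11.15), and correlations with 100000 permutations. The fit was tested on simulated data. Same-numbered samples of 2 groups deviated from their group means with correlations from -0.050 to 0.074, so replicate numbers were not used to pair samples. No sequencing batch is given in the labels.

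The 4 genes and all gene lists were chosen with earlier results of these data known. Genes named from the lists were those called in obese+NAM against obese or obese against lean on either scale, plus a set of receptors, processing enzymes, isoforms and relatives of the 4 genes, and genes most alike were the 5 with the highest r and a mean of 5 TPM or more. The samples set apart by more than 20 TPM of Myl7 were chosen after their values were seen. Promoter windows and neighbours came from RefSeq tables of GRCr8 (4 of 4 symbols matched the gene table and 3 the promoter table), since the files' own assembly was not used here. Alternatives covered the pseudocount, the filter, scaling, eBayes options, the samples fitted, a replicate block and leaving out each replicate.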

Additional observations from a re-analysis of the deposited data

Results flagged for a closer look

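In groups of 4, a sample was singled out where its gap to the nearest other value took up more of the group's range than Dixon's 95% critical value allows. Chance flags about 1 in 20 groups if values spread normally, and 21 groups were looked at (4 genes and 3 ratios in 3 groups each). Plain TPM values and plain ratios were used. Flags were not looked for on the log2 scale of the tests, where high values stand out less. Nppa stood out at 453 TPM in obese+NAM replicate 1, where the next value in the group was 186 TPM. The ratio of Acta1 to Actc1 stood out in the same sample, at 0.0116 against 0.0235 for the next lowest. This is the sample with the highest Myl7 (192 TPM) and Bmp10 (11.4 TPM). The ratio of Nppa to Myl7 stood out at 123 in obese replicate 2, where the next value was 14.3, from 268 TPM of Nppa and 2.17 TPM of Myl7.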

How the results depend on the processing

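None of the 4 genes passed in any comparison as deposited. Of 25 alternatives each, 4 passed for Acta1 in obese+NAM against obese, 1 for Acta1 in obese+NAM against lean, 1 for Ankrd1 in obese against lean and 0 elsewhere. Acta1 in obese+NAM against obese passed at -0.76 with a filter on a mean of 5 TPM (adjusted p = 0.0376, limma), without trend and robust (0.0466) and with a replicate block (-0.76, 0.0241), and at -0.92 without obese+NAM replicate 4 (0.0357). Its range leaving out 1 replicate was -0.92 to -0.47. Acta1 in obese+NAM against lean passed with a replicate block and rescaling (-1.04, 0.0491). Ankrd1 in obese against lean passed without obese replicate 2 (0.0266, range -0.41 to -0.23). Replicate numbers are not shown to pair the samples. Signs turned as follows. Nppb in obese against lean was 0.19 rescaled, 0.19 with a replicate block and rescaling, 0.24 without mitochondrially encoded genes, 0.19 with quantile normalization, 0.050 without the samples above 20 TPM of Myl7 and 0.27 without them after rescaling (range leaving out 1 replicate -0.34 to 0.13). Acta1 in obese against lean was 0.041 rescaled, with and without the block, 0.087 without mitochondrially encoded genes, 0.041 with quantile normalization and 0.20 rescaled without the Myl7 samples. Nppa in obese+NAM against obese was -0.034 rescaled, with and without the block, and -0.079 rescaled without the Myl7 samples (range -0.10 to 0.50). Ankrd1 there ranged from -0.12 to 0.060. The log2 ratio of Nppa to Myl7 in obese against lean was 0.87 without the Myl7 samples, and ranged from -0.42 to 1.499 in obese+NAM against lean. The samples left out were picked for high Myl7, the divisor of this ratio, so the 0.87 cannot be read as a result. The r of Nppa and Ankrd1 was 0.147 without the 2 farthest samples. No value with a turned sign passed (lowest adjusted p 0.662), and the cause was not tested. The leaving-out of the Myl7 samples was chosen after seeing the data. It kept only replicates 2 and 3 of the obese group.

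Calls over all genes depended on scaling. There were 3077 in obese+NAM against obese, 193 in obese+NAM against lean and 1770 in obese against lean as deposited. In that order, counts leaving out 1 replicate ranged from 1848 to 3625, from 70 to 189 and from 1000 to 1956, lowest without obese+NAM replicate 1, without obese+NAM replicate 3 or 4, and without lean replicate 1. Rescaling gave 75 in obese+NAM against obese and 141 in obese against lean, quantile normalization 66 and 126, and the block with rescaling 29 and 113. Without mitochondrially encoded genes there were 323, 741 and 83. Without the Myl7 samples there were 2, 60 and 375, and 3, 111 and 8 after rescaling. With no filter 124 were called in obese+NAM against lean. Groups of 4 and an unknown read depth limit what can be seen.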
